A study of Mus musculus with 18 samples.

Results

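The aging of female skeletal muscle was followed in 6 of the 18 RNA sequencing libraries of the series, 3 from old and 3 from young untreated female C57BL/6 mice. The muscle was the rectus femoris, a thigh muscle, and poly(A) RNA was sequenced as paired-end reads. The old untreated females, numbered 1, 2 and 3 in the labels, were 19 months old, and the young untreated females, numbered 1, 3 and 8, were 8 months old. Neither group had received 3TC, the reverse transcriptase inhibitor given to another arm of the series. The libraries were taken by their sex, age and treatment in the labels. The comparison asks how the muscle transcriptome of females differs between these ages. The labels describe no pooling of animals, and the p-values measure the spread between the libraries deposited.

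Skeletal muscle of old mammals is known for loss of mass and strength, slower repair by satellite cells, the resident muscle stem cells, and accumulation of immune cells and connective tissue. Type I interferon is a cytokine that switches on antiviral genes when cell sensors meet foreign or misplaced nucleic acid. Transposable elements are repeated sequences, many of them remnants of retroviruses (LTR elements) or of elements copied through RNA (LINE and SINE elements), which cells normally keep silent.

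The old females held 73.9, 81.9 and 79.4 M recovered reads, against 64.6, 67.8 and 71.7 M in the young females. The groups did not overlap in depth (exact two-sided permutation test, p = 0.1, the smallest that 20 regroupings allow). Every value below is a normalised count scaled by the authors to the same total per library. All 6 libraries carried the transcript Xist, which marks the inactive X chromosome of females, at 11788, 12756 and 10377 in old females and at 7935, 8133 and 11521 in young females, and the Y-linked gene Kdm5d was at 0 in each of them. They also carried muscle transcripts at high levels: Acta1, the skeletal muscle actin, lay between 1594393 and 1903323 in old females and between 1945639 and 2444227 in young females.

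Young females 1 and 3 stood apart from the other libraries in their transposable-element share. This share was 1.98%, 1.97% and 1.80% in old females 1, 2 and 3, against 5.92%, 12.04% and 1.82% in young females 1, 3 and 8. The mean was 1.92% ± 0.0997 in old females and 6.59% ± 5.15 in young females (SD, n = 3 each), a difference of -4.68 percentage points (exact two-sided permutation test, p = 0.3). The share of young female 8 lay between those of the old females, and the remaining 12 libraries of the series ran from 1.54% to 2.51%. SINE elements held 0.866%, 0.828% and 0.766% of the counts in old females, against 2.77%, 5.73% and 0.790% in young females. LINE elements held 0.493%, 0.464% and 0.453% in old females, against 1.94%, 4.13% and 0.421% in young females. Young females 1 and 3 also exceeded the other 4 female libraries in the LTR, DNA and satellite classes, while among repeats of unknown class young female 1 lay within the range of the old females. Young female 3 also had the most genes with a count above 0, with 18228, 18045 and 18205 such genes in old females and 18370, 19049 and 17544 in young females. For that reason results are given with and without young females 1 and 3. Without them the young group is young female 8 alone, so those values rest on that library.

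**Figure D1:**
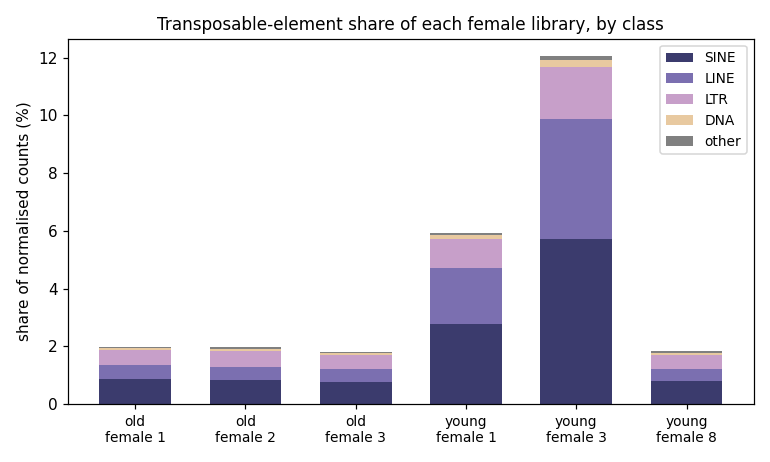
Share of normalised counts (%, y axis) held by transposable elements in each of the 6 female libraries (x axis), stacked by class. Young females 1 and 3 reach 5.92% and 12.04%, while the old females and young female 8 lie between 1.80% and 1.98%.

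The transposable-element rows that reached a mean normalised count of 10 numbered 968 subfamilies. Of these, 419 (43.3%) were lower in old females (limma, Benjamini-Hochberg adjusted p under 0.05) and 0 (0.0%) were higher by limma. None was higher at an unadjusted p under 0.05 either, and edgeR and DESeq2 each called 1 as higher. The lower ones included 97 of 150 LINE, 242 of 590 LTR, 27 of 36 SINE and 47 of 172 DNA subfamilies. All 16 subfamilies of the Alu family of SINE elements, which holds the mouse B1 repeats, were among them, as were 91 of 129 L1 subfamilies. Young females 1 and 3 both exceeded the other 4 female libraries in 849 (87.7%) of the 968 subfamilies. The count called was 2 without old female 1, old female 2, old female 3 or young female 1, 3 without young female 3, and 830 without young female 8. Without both young females 1 and 3 the median log2 change over all subfamilies was 0.07. With only the 6 female libraries in the fit 0 subfamilies were called by limma, and 159 had an unadjusted p under 0.05. The difference between the female and the male age change was past the threshold for 0 of 968 subfamilies by limma (421, or 43.5%, at an unadjusted p under 0.05), for 511 by edgeR and for 572 by DESeq2.

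B1_Mus1, an abundant B1 repeat, had 49119, 40996 and 33049 normalised counts in old females, against 298956, 664951 and 34390 in young females. It was lower in the fit by 2.23 ± 0.68 on the log2 scale (limma adjusted p = 0.0328), and without young females 1 and 3 the log2 change was 0.24. L1Md_T, a subfamily of young LINE elements that can still move in mice, had 13969, 13473 and 12559 in old females, against 47890, 96043 and 11265 in young females. In young female 8, B1_Mus1 lay within the range of the old females and L1Md_T slightly below it. A different pattern, with all young females above all old females, was seen in some LTR, LINE and DNA subfamilies. The L1 subfamily HAL1ME had 165, 93.1 and 152 in old females, against 866, 1772 and 343 in young females. Its log2 change was -2.60 ± 0.47 (limma adjusted p = 0.00806), and -1.36 against young female 8 alone. RLTR42, an LTR element, and MER47B, a DNA element, had -1.21 and -0.68 against young female 8 alone. The 2 LTR subfamilies given next are of the ERVK family, as is RLTR42. MLTR18_MM had 68.1, 50.6 and 73.6 in old females, against 259, 691 and 253 in young females, so that all young females lay above all old females. Its log2 change was -2.47 ± 0.41 (limma adjusted p = 0.00719), and -1.98 against young female 8 alone. RLTR11C_MM had 207, 277 and 176 in old females, against 510, 943 and 1490 in young females. Its log2 change was -2.04 ± 0.37 (limma adjusted p = 0.00806), and -2.78 against young female 8 alone. In males RLTR11C_MM lay between 238 and 262 at the old age and between 180 and 212 at the young age. The difference between the sexes in its age change was not past the threshold (limma adjusted p = 0.0946), and with only the 6 female libraries in the fit its adjusted p was 0.255. Its order among the young females was also that of the summed liver markers described further on. Among the old females the orders differed, as old female 3 had the lowest RLTR11C_MM count and the highest liver sum. The part of the liver markers in the RLTR11C_MM values was not tested. The intracisternal A particle IAPEz-int, an active mouse retrovirus-like element, had 20940, 19384 and 17335 in old females, against 20325, 27375 and 22137 in young females (log2 change -0.27 ± 0.28, limma adjusted p = 0.395). Old female 2 alone was high for Charlie8, a DNA transposon, with 962, 14996 and 719 in old females and 944, 1447 and 639 in young females. The same library was high for the retrovirus-like MMVL30-int, with 10522, 29291 and 10556 in old females and 9580, 11058 and 9454 in young females.

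Among the 16060 genes tested, 0 (0.0%) passed the threshold of an adjusted p under 0.05 by limma, and the lowest adjusted p was 0.1004. At an unadjusted p under 0.05 there were 2644 genes (16.5%), of which 2420 (15.1%) were higher and 224 (1.39%) were lower in old females. With median-of-ratios scaling, described next, 960 (5.98%) were higher and 713 (4.44%) were lower. On the recovered reads edgeR called 0 genes (1664 at an unadjusted p under 0.05) and DESeq2 called 57, of which 33 were higher and 24 were lower. The excess of higher genes depends on the scaling. The median log2 change over all genes was 0.19 as deposited, 0.12 with a total over gene rows and 0.01 with median-of-ratios scaling, which sets the typical gene ratio to 1. In 2438 genes (15.2%) all old females lay above all young females, and in 555 (3.46%) all lay below. With median-of-ratios scaling these became 1253 (7.8%) and 1254 (7.81%). Gene counts below are read against those shares. The count of genes called by limma was 17 without old female 3, 1 without young female 8, and 0 without each of the other 4 libraries in turn.

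The 10 increases and 10 decreases with the smallest p, among genes with a mean of at least 50, are described first; none of them passed the limma threshold. In each of the 20 genes the old and young females did not overlap, which the choice by p favours. Each kept its sign with median-of-ratios scaling. Without young females 1 and 3 the sign could not change, because the groups did not overlap. The size moved in both directions, from 1.34 to 0.84 for Actr3b and from -1.28 to -1.77 for Fras1. DESeq2 called 18 of the 20.

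Btaf1 and Ide led the increases, and both lie on chromosome 19 of GRCm38, Btaf1 at 36926079 to 37012752 on the plus strand and Ide at 37268743 to 37337852 on the minus strand. Btaf1, an ATPase that removes the TATA-binding protein from DNA, had 1557, 2118 and 1849 normalised counts in old females, against 705, 904 and 891 in young females. Its log2 change was 1.14 ± 0.18 (limma adjusted p = 0.1004; DESeq2 adjusted p = 0.000145). Ide, the insulin-degrading enzyme, had 11892, 12723 and 12064 in old females, against 6866, 6889 and 6909 in young females (log2 change 0.83 ± 0.14, limma adjusted p = 0.1004). Its 3 old values and its 3 young values were each tightly grouped. Males differed in the same way for both genes, with log2 changes of 1.17 ± 0.18 for Btaf1 and 1.22 ± 0.14 for Ide, and these were the only 2 genes (0.0125%; 1558, or 9.7%, at an unadjusted p under 0.05) past the limma threshold in males (adjusted p = 0.0447 for Btaf1 and 0.00246 for Ide).

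Actr3b, a relative of the actin-nucleating protein Arp3, had 258, 327 and 210 in old females, against 83.7, 88.4 and 146 in young females (log2 change 1.34 ± 0.23). Males carried more of it at both ages, with 771 to 990 in old males and 852 to 1065 in young males. Slc30a2, a zinc transporter, had 97.1, 70.5 and 82.0 in old females, against 27.5, 33.8 and 26.9 in young females (log2 change 1.47 ± 0.25), and it too was higher in males, at 441 to 749 in old males and 422 to 721 in young males. Camk2n1, an inhibitor of the calcium-dependent kinase CaMKII, had 2697, 2226 and 1509 in old females, against 971, 763 and 1093 in young females (log2 change 1.16 ± 0.22). Pik3r5, a regulatory subunit of the leukocyte enzyme PI3K gamma, had 187, 91.3 and 158 in old females, against 48.2, 26.2 and 46.5 in young females (log2 change 1.82 ± 0.34). The receptor of interleukin-1, Il1r1, had 673, 780 and 633 in old females, against 438, 367 and 467 in young females (log2 change 0.71 ± 0.15). For Map1lc3a, which coats autophagosomes, counts were 18959, 16680 and 18227 in old females, against 12894, 10653 and 11969 in young females (log2 change 0.60 ± 0.12). Ift43, of the machinery that moves cargo in cilia, and Bud31, a splicing factor, had log2 changes of 0.98 ± 0.18 and 0.45 ± 0.09. The limma adjusted p of these 8 genes lay between 0.1004 and 0.188.

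Among the decreases, Sgk1, a kinase induced by glucocorticoids that is activated downstream of insulin, had 3940, 4407 and 6219 in old females, against 8559, 7923 and 8266 in young females. Its log2 change was -0.79 ± 0.20 (limma adjusted p = 0.206; DESeq2 adjusted p = 0.00259) and -0.53 ± 0.20 in males. Epdr1, a lysosomal protein, had 6239, 6482 and 7015 in old females, against 8692, 8357 and 8423 in young females (log2 change -0.37 ± 0.08). Slc2a12, the glucose transporter GLUT12, had 488, 611 and 584 in old females, against 780, 785 and 742 in young females (log2 change -0.46 ± 0.12). Within each group these last values varied little. Myf5, a transcription factor of satellite cells and muscle precursors, had 33.0, 50.6 and 46.6 in old females, against 101, 178 and 88.8 in young females (log2 change -1.43 ± 0.41). Fras1, a basement membrane protein, had 95.1, 47.9 and 69.9 in old females, against 146, 135 and 235 in young females (log2 change -1.28 ± 0.32). Cnga3, known as a channel subunit of cone photoreceptors, was low throughout, with 12.01, 13.6 and 32.6 in old females and 80.3, 156 and 90.9 in young females (log2 change -2.51 ± 0.50). Aldh1l2, a mitochondrial enzyme of folate metabolism, had 216, 124 and 218 in old females, against 367, 304 and 462 in young females (log2 change -1.04 ± 0.30). Prdm9, which marks the hotspots of meiotic recombination, had 142, 233 and 171 in old females, against 268, 299 and 282 in young females (log2 change -0.66 ± 0.19). The aminotransferase Ccbl1 had 660, 792 and 704 in old females, against 1043, 933 and 1016 in young females (log2 change -0.48 ± 0.14).

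Cyp2b13, a cytochrome P450 of female mouse liver, had 1.00, 3.62 and 6.53 in old females, against 61.9, 108 and 323 in young females, and was at 0 in all untreated males. Its log2 change was -4.99 ± 1.12 (limma adjusted p = 0.188). Young female 8 was highest, as it was for the summed liver markers, whose part in this difference was not tested. Close relatives of this gene exist in the mouse genome, and reads they share could have been split between them.

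**Figure D2:**
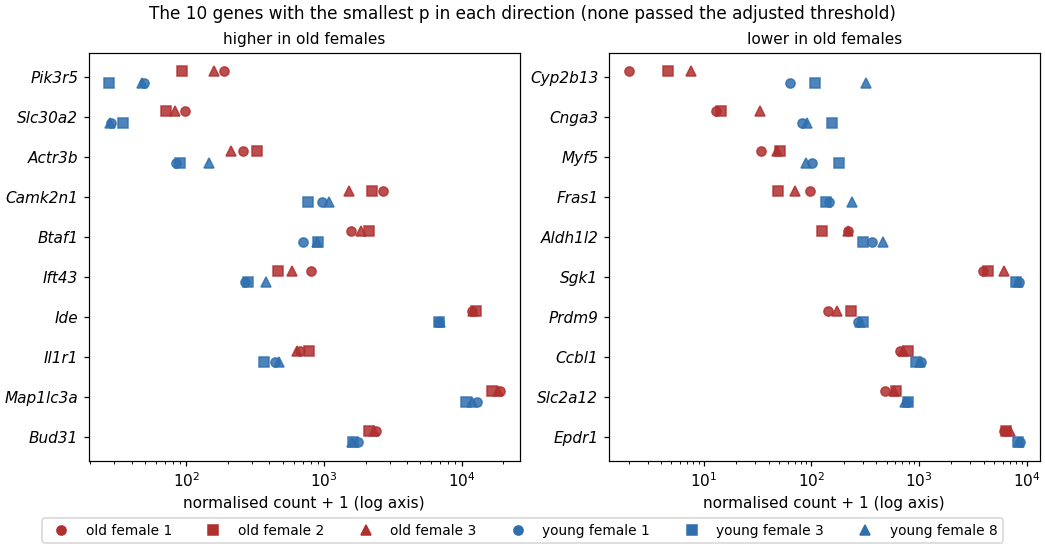
Normalised count plus 1 (log axis) of the 10 genes with the smallest p in each direction, one row per gene, in old females (red) and young females (blue); marker shapes are the individual mice. In every row all red points lie on one side of all blue points, and no gene passed the adjusted threshold.

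Gene lists gave a broader view. They held 773 tested genes in 40 lists, of which limma and edgeR called 0 and DESeq2 called 6: Ccl8, H2-T23, Oas2 and Tnni3 as higher, Sgk1 and Myf5 as lower. List medians are set against the median over all genes of 0.19, or of 0.07 without young females 1 and 3. In bulk tissue fewer cells of a type and less RNA per cell cannot be told apart.

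Macrophage genes had the largest share of members wholly above among the immune lists. In 22 of 26 members (84.6%, against 15.2% of all genes) every old female lay above every young female, in 20 of 26 with median-of-ratios scaling, and none lay below. The median log2 change was 1.19, and 0.84 without young females 1 and 3, and 22 members had an unadjusted p under 0.05. Cx3cr1, the fractalkine receptor, had 100, 64.2 and 53.1 in old females, against 5.73, 7.64 and 18.6 in young females (log2 change 2.76 ± 0.70, limma adjusted p = 0.209). C1qb, a chain of the complement initiator C1q, had 2088, 2097 and 1714 in old females, against 898, 368 and 779 in young females (log2 change 1.62 ± 0.42). Cd68, a lysosomal protein of phagocytes, had 686, 474 and 438 in old females, against 251, 147 and 221 in young females. Adgre1, which encodes the F4/80 antigen, had 353, 385 and 270 in old females, against 181, 100 and 183 in young females. The summed macrophage level ran from 22508 to 26275 in old females and from 6781 to 15545 in young females, with young female 3 lowest. The males gave a list median of 1.09.

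The chemokine Ccl8, a monocyte attractant, had 366, 66.0 and 45.7 in old females, against 5.73, 0 and 23.8 in young females. Its log2 change was 4.25 ± 0.90 (limma adjusted p = 0.188; DESeq2 adjusted p = 0.00259), and it was 2.08 without young females 1 and 3, so that its size rests in part on them. Of 22 chemokine and inflammatory genes, 5 lay wholly above (22.7%, against 15.2% of all genes) and the list median was 0.49. Among neutrophil and mast cell genes 4 of 11 (36.4%) lay wholly above, with a list median of 1.62. S100a8, a calcium-binding protein of neutrophils, had 165, 54.2 and 107 in old females, against 22.9, 1.09 and 11.4 in young females (log2 change 3.55 ± 0.98, limma adjusted p = 0.209). The mast cell chymase Cma1 had 171, 386 and 420 in old females, against 120, 48.0 and 149 in young females (log2 change 1.66 ± 0.46). T and NK cell genes had a median of 0.29 in females (-0.16 without young females 1 and 3) and 2.38 in males. B and plasma cell genes had -0.10 in females and 2.70 in males. Both lists were low. The median T and NK cell member stood at a log2 level of 3.07 to 5.30 in old females and 2.75 to 4.23 in young females. The summed B and plasma cell level was 190 to 223 in old females and 187 to 353 in young females. In each of these lists 1 member lay wholly above in females (7.14% and 9.09%, below the 15.2% of all genes). Of the B cell genes 1 lay wholly below. The difference between the sexes was tested for each gene, as given at the end, and passed for 0 by limma.

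Antigen presentation and interferon genes also had mostly higher values in old females, with more spread among them. Of 20 MHC class I and II genes 10 lay wholly above, where 15.2% of all genes did. With median-of-ratios scaling 9 did, where the share over all genes was 7.8%. The MHC class I and II list median log2 change was 0.99, 0.65 without young female 3, and 0.38 without young females 1 and 3. H2-T23, which encodes the nonclassical class I molecule Qa-1, had 2000, 1202 and 1025 in old females, against 612, 381 and 831 in young females (log2 change 1.22 ± 0.28, limma adjusted p = 0.188; DESeq2 adjusted p = 0.0217). Of 40 interferon-stimulated genes 10 lay wholly above, where 15.2% of all genes did. With median-of-ratios scaling 7 did, where the share over all genes was 7.8%. An unadjusted p under 0.05 was found for 24, all of them higher, where 15.1% of all genes were higher at that p. All 40 had a log2 change above 0 as deposited and 39 with median-of-ratios scaling. The interferon-stimulated list median log2 change was 0.95, 0.55 without young females 1 and 3, and 0.47 without old female 1. Old female 1 stood out, with summed levels of 53184, 26850 and 15789 in old females and 14378, 11004 and 17793 in young females, so that old female 3 lay within the young range. Old female 1 also had the lowest summed fast fibre level, with 10342520, 11089176 and 11688753 in old females and 12084900, 11807169 and 13542876 in young females, and its part in the interferon values was not tested. Irf7, the regulator that amplifies interferon production, followed this order with 878, 707 and 237 in old females, against 182, 140 and 255 in young females (log2 change 1.49 ± 0.44, limma adjusted p = 0.209). Oas2, an enzyme that makes the messenger oligoadenylate when double-stranded RNA activates it, had 408, 132 and 128 in old females, against 53.9, 57.9 and 59.9 in young females (log2 change 1.72 ± 0.42, limma adjusted p = 0.201; DESeq2 adjusted p = 0.0274).

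The promoters of 3 interferon genes are shown because interferon acts on many of its target genes through a short promoter element, the ISRE. They were chosen after the values were seen, as the list members with the smallest p whose groups did not overlap and whose promoter held the motif. Capitals mark matches to GAAA, any 2 bases and a second GAAA, on either strand, a simplified form of that element, with overlapping matches run together. The sequences are from RefSeq on GRCm38.p6, written along the gene's own strand from 250 bases before to 50 after its start: Gbp2 at chr3:142620413-142620712 (plus strand), Oas1a at chr5:120907476-120907775 and Isg15 at chr4:156200769-156201068 (both minus strand).
Gbp2: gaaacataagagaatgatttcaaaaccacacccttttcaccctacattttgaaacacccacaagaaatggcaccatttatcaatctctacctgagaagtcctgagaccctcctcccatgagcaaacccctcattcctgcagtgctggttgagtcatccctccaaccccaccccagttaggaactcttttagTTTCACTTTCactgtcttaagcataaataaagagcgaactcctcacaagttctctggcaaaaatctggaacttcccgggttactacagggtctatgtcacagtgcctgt
Oas1a: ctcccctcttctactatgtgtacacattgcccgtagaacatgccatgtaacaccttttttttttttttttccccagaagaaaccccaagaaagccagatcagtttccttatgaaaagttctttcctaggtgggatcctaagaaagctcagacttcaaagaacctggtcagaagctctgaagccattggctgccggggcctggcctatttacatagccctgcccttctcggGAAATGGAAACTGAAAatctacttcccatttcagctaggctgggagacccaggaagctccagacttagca
Isg15: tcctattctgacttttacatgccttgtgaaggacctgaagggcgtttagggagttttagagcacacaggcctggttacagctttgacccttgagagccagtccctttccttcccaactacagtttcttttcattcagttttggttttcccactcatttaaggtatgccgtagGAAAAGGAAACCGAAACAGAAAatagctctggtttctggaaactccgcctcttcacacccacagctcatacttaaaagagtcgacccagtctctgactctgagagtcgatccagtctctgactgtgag

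The motif was present in 1131 (3.44%) of the 32851 promoters in the table, and in at least 1 promoter of 3.99% of its 27025 genes. Of the 40 listed genes 29 had a promoter there, and 17 of these genes held the motif, in 18 of their 33 promoters. A match describes the sequence and does not show binding. Gbp2, a GTPase of cell-autonomous defence, had 5635, 1247 and 786 normalised counts in old females, against 611, 322 and 731 in young females (log2 change 1.75 ± 0.55). Oas1a, a sensor of double-stranded RNA, had 203, 98.5 and 56.9 in old females, against 33.3, 53.5 and 48.5 in young females (log2 change 1.22 ± 0.45). Isg15, a ubiquitin-like modifier, had 189, 135 and 77.4 in old females, against 73.4, 50.2 and 62.0 in young females (log2 change 1.03 ± 0.41). In all 3 genes old female 1 was highest, and old female 3 was only slightly above the highest young female. Among sensors of nucleic acid 10 of 19 lay wholly above (52.6%, against 15.2% of all genes), or 6, with 1 below, under median-of-ratios scaling. Their median was 0.55, and 0.56 without young females 1 and 3. The Oas, H2, Gbp and Ifi200 families hold near-identical copies, among which the counting could have split reads.

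**Figure D3:**
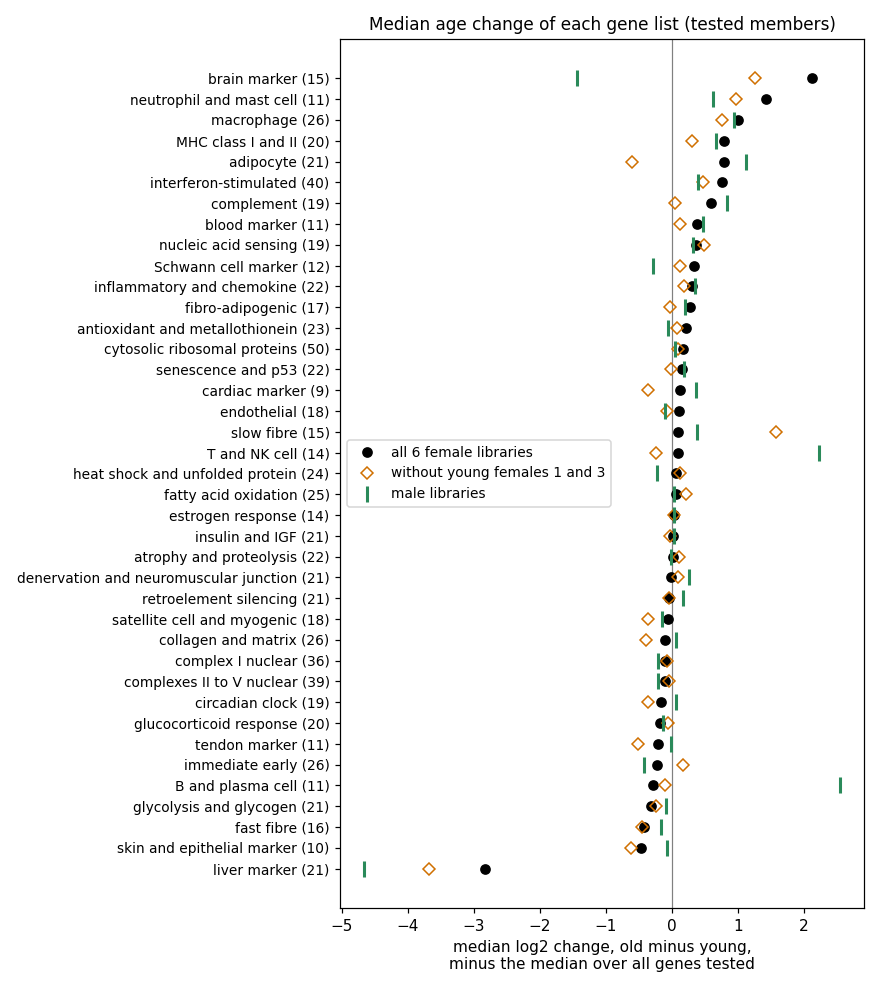
Median log2 change (old minus young) of each list with at least 5 tested members, after subtraction of the median over all genes tested; the number of tested members stands in brackets. Filled circles are all 6 female libraries, open diamonds leave out young females 1 and 3, and green ticks are the males. The macrophage, MHC and interferon lists lie right of 0 in females and males, the adipocyte list changes side without young females 1 and 3, and with all 6 female libraries the liver and brain marker lists lie farthest from 0.

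Most cytosolic ribosomal protein genes had slightly higher values in old females as deposited, and none of them passed the threshold by limma, edgeR or DESeq2. Of 50 genes 42 lay wholly above (84.0%, against 15.2% of all genes). With median-of-ratios scaling 23 did, where the share over all genes was 7.8%. All 50 had a log2 change above 0 under both scalings and without young females 1 and 3. Their median was 0.36, and 0.17 without young females 1 and 3, beside a median over all genes of 0.19 and 0.07. Rpl3, a protein of the large subunit, had 7123, 5724 and 5416 in old females, against 3365, 2722 and 4378 in young females (log2 change 0.82 ± 0.19, limma adjusted p = 0.188; 0.47 without young females 1 and 3). Young female 8 was the young library nearest to the old ones. Processed pseudogenes of ribosomal proteins are numerous, and reads shared with them could have been counted elsewhere. Of 23 antioxidant genes 9 lay wholly above (39.1%, against 15.2% of all genes). With median-of-ratios scaling 3 did, where the share over all genes was 7.8%. Gpx4, which repairs oxidised membrane lipids, had 27956, 31615 and 33252 in old females, against 23475, 19848 and 23510 in young females (log2 change 0.47 ± 0.13), and the metallothionein Mt1 had 2150, 1409 and 1046 in old females, against 553, 535 and 880 in young females (log2 change 1.20 ± 0.40). For both genes the groups did not overlap, and the limma adjusted p was 0.209 for Gpx4 and 0.217 for Mt1.

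No gene of the contractile and metabolic lists passed the limma threshold. Of 16 fast fibre genes 3 lay wholly below (18.75%, against 3.46% of all genes) and 0 above, with a median of -0.24. With median-of-ratios scaling 5 lay wholly below, where the share over all genes was 7.81%. Casq1, the calcium store protein of fast fibres, had 64421, 175773 and 195682 in old females, against 208130, 204164 and 237413 in young females, and the summed level of old female 1 was the lowest of the 6. Myh4, the myosin of the fastest fibres, had 2597095, 2327512 and 2094389 in old females, against 3035179, 2889426 and 2836158 in young females (log2 change -0.32 ± 0.37, limma adjusted p = 0.656). Myh1 and Myh2, the myosins of types IIx and IIa, overlapped between the groups. Among 36 nuclear genes of respiratory complex I, 0 lay wholly above or below, and 32 had a log2 change above 0 as deposited but 2 with median-of-ratios scaling. Complexes II to V behaved alike, with 36 of 39 above 0 as deposited and 6 with median-of-ratios scaling. The mitochondrially encoded share of counts was 18.8%, 20.1% and 21.99% in old females, against 19.3%, 16.8% and 16.1% in young females (exact two-sided permutation test, p = 0.2). Slow fibre genes had a median of 0.29, and of 1.65 without young females 1 and 3, when they are set against the low values of young female 8. Their median log2 level varied widely within both ages. It was 10.66, 7.08 and 9.33 in old females, against 9.96, 9.91 and 6.26 in young females, so that old female 2 was low too.

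Muscle stem cell and stress genes were mixed. Pax7, which marks satellite cells, had 76.1, 75.9 and 55.9 in old females, against 117, 99.3 and 213 in young females (log2 change -0.97 ± 0.39, limma adjusted p = 0.260). With Myf5, it was among 3 of 18 myogenic genes that lay wholly below, where the share over all genes was 3.46%. Myod1, another myogenic factor, had 4507, 1769 and 2607 in old females, against 2001, 1462 and 1552 in young females. The groups overlapped there. The list median was 0.12, and -0.29 without young females 1 and 3. Of 26 immediate early genes, which respond within minutes to activity, 2 lay wholly below (7.69%, against 3.46% of all genes). Nr4a1, an orphan nuclear receptor, was one of them, with 10833, 13076 and 8898 in old females, against 15054, 15198 and 14782 in young females (log2 change -0.47 ± 0.19, limma adjusted p = 0.251, and -1.02 ± 0.19 in males). The cell cycle inhibitor Cdkn1a, a senescence marker, had 6355, 2717 and 3106 in old females, against 2780, 2561 and 1083 in young females (log2 change 0.93 ± 0.51, limma adjusted p = 0.356). Cdkn2a, the other common senescence marker, was low throughout, at 4.00, 27.1 and 13.98 in old females and 0, 15.3 and 3.10 in young females. The estrogen receptor Esr1 had 1660, 2486 and 1762 in old females, against 2295, 1611 and 2280 in young females, and the groups overlapped.

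The adipocyte list changed side of the median over all genes when young females 1 and 3 were left out, and the matrix list lay below it either way. The adipocyte list had a median of 0.98 with all libraries and of -0.53 without young females 1 and 3, and 0 of 21 members lay wholly above or below. Its summed level was 215451, 1113774 and 245940 in old females, against 127990, 115793 and 409533 in young females. Old female 2 held the most, and young females 1 and 3 the least. Car3, a carbonic anhydrase abundant in fat and slow muscle, had 74402, 237718 and 126218 in old females, against 44432, 48936 and 112592 in young females (log2 change 1.06 ± 0.39, limma adjusted p = 0.237; 0.22 without young females 1 and 3). Collagen and matrix genes had a median of 0.09, and of -0.32 without young females 1 and 3, with 0 of 26 wholly above. The medians over all genes were 0.19 and 0.07. With median-of-ratios scaling and all libraries the matrix median was -0.08. Of 21 genes that silence retroelements 4 lay wholly above (19.0%, against 15.2% of all genes), with a median of 0.15, below that of all genes. With median-of-ratios scaling 2 lay above and 2 below. The RNA editing enzyme Adar had the smallest p among them, with 740, 677 and 403 in old females, against 365, 195 and 381 in young females (log2 change 0.96 ± 0.29, limma adjusted p = 0.209).

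**Figure D4:**
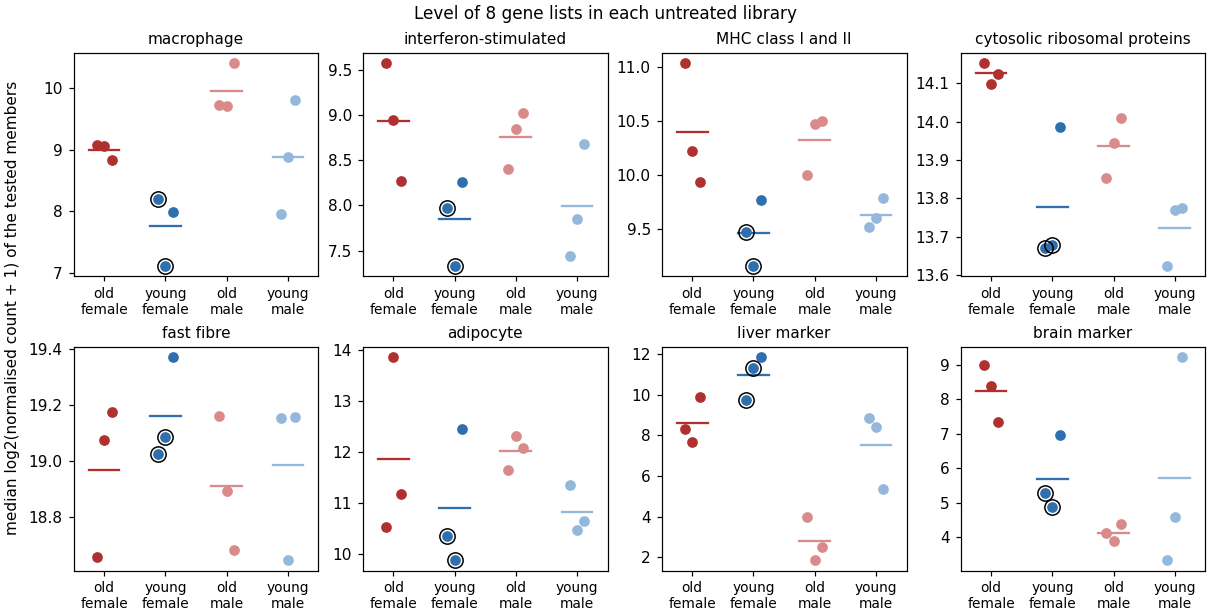
Level of 8 gene lists in each untreated library: each point is the median log2(normalised count + 1) over the tested members of a list, and lines are group means (n = 3 each). Black circles mark young females 1 and 3. Macrophage levels of the 3 old females lie above those of the young females, and the liver and brain marker lists have the widest range over the 12 libraries.

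Markers of other organs varied between the female libraries and were not evenly spread over the ages. Of 21 tested liver markers 10 lay wholly below (47.6%, against 3.46% of all genes) and none above. All 21 had a log2 change below 0, with a median of -2.65 in females and -4.52 in males. Their summed level was 11458, 16612 and 46362 in old females, against 40437, 104785 and 185817 in young females. Alb, the serum albumin made by liver, had 3484, 3358 and 22966 in old females, against 17977, 44970 and 84440 in young females. Of 15 tested brain markers 10 lay wholly above (66.7%, against 15.2% of all genes) and 1 below (6.67%, against 3.46%). The brain median was 2.32 in females and -1.28 in males. Their summed level overlapped, with 51206, 49861 and 44778 in old females and 48573, 44897 and 53608 in young females. Most of it was Camk2a, a subunit of the kinase CaMKII and the member wholly below. Camk2a had 32588, 42791 and 40140 in old females, against 46463, 42890 and 50007 in young females. Nrgn, a protein of neuronal synapses, had 634, 695 and 374 in old females, against 108, 98.3 and 123 in young females (log2 change 2.32 ± 0.83, limma adjusted p = 0.229). The astrocyte glutamate transporter Slc1a2 had 6378, 2180 and 530 in old females, against 94.0, 299 and 402 in young females. Old female 1 was highest for most of these markers, and it also led Mbp, a myelin protein of brain and nerve, with 6347, 1732 and 1818 in old females and 1233, 840 and 1663 in young females. Of 9 tested cardiac markers 1 lay wholly above (11.1%, against 15.2% of all genes) and 1 wholly below (11.1%, against 3.46%). The cardiac median was 0.32, or -0.28 without young females 1 and 3. Their summed level was 1873, 7007 and 6250 in old females, against 11274, 19351 and 27748 in young females. Most of that sum was Actc1, the cardiac actin, which immature skeletal muscle also makes, with 715, 6188 and 4933 in old females, against 10293, 18766 and 26634 in young females (log2 change -2.63 ± 0.96, limma adjusted p = 0.236). The cardiac troponin Tnni3 went the other way at a low level, with 34.0, 8.13 and 27.0 in old females, against 3.44, 0 and 1.03 in young females, and was called by DESeq2 alone (adjusted p = 0.0479). Of the skin markers Krt5 was at 0 in all 6 libraries, as were Umod and Kap of kidney. The part of these other tissues in the gene lists above was not tested.

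The age change in females was set against that in males with a test of the difference. It was past the limma threshold for 0 of 16060 genes (0.0%; 783, or 4.88%, at an unadjusted p under 0.05), for 0 by edgeR and for 152 by DESeq2. Of the 10 leading increases 6 had a log2 change above 0 in males, where 72.6% of all genes did. Of the 10 leading decreases 8 had one below 0, where 27.3% of all genes did. Actr3b, with a female minus male difference of 1.51 ± 0.32 (limma adjusted p = 0.919), was among the 5 largest by p on the positive side. The others were 2010300C02Rik, Ttyh1, Cck and Dnah1. Ttyh1, a chloride channel gene of brain, had 632, 304 and 106 in old females, against 29.8, 30.6 and 112 in young females. It had 24.8 to 54.6 in old males, against 68.4, 83.0 and 489 in young males 1, 2 and 8, and young male 8 also had the highest brain marker level of the males. On the negative side Neat1, a long noncoding RNA of paraspeckles, had 22463, 24317 and 24340 in old females, against 25952, 24982 and 32054 in young females (log2 change -0.21 ± 0.18). It had 43645, 39344 and 30285 in old males, against 18393, 20588 and 22673 in young males (log2 change 0.87 ± 0.18), and the female minus male difference was -1.08 ± 0.26 (limma adjusted p = 0.919). Meis1, a homeobox factor, likewise had a log2 change of -0.50 ± 0.22 in females and 0.73 ± 0.22 in males. Gimap3, Fam214a and Gm15441 completed the 5 with the smallest p on that side, and none passed.

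**Figure D5:**
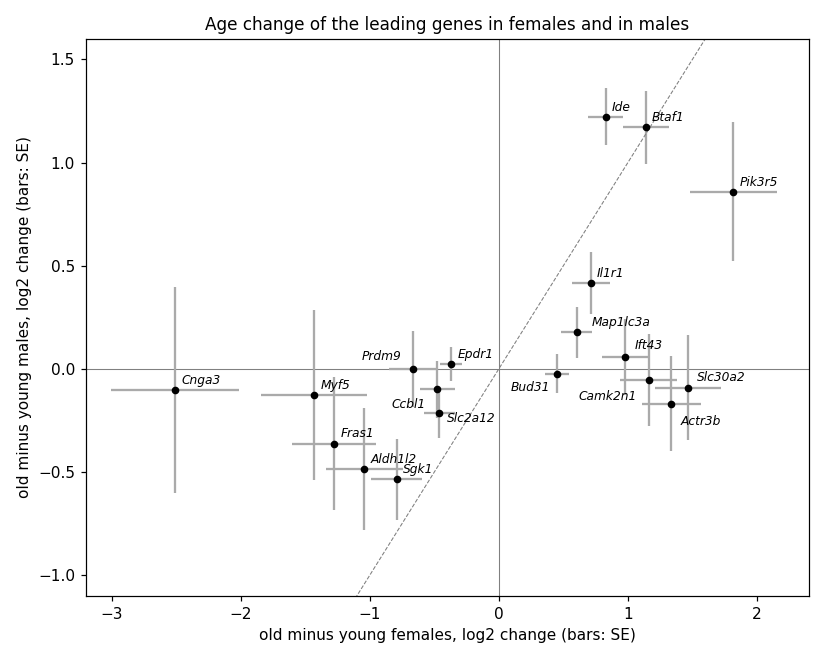
Log2 change with age in females (x axis) and in males (y axis) for the leading genes, with standard errors; the dashed line marks equal change, and Cyp2b13, at 0 in all untreated males, is left out. Btaf1 and Ide are high on both axes, while Actr3b, Slc30a2 and Camk2n1 lie near 0 in males.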

How the data were processed

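The deposited table held a signal per gene and transposable-element subfamily: read counts that the authors had scaled to a common total of 74.0 M per library. The submitters' processing notes name STAR for alignment and mm10 as the genome; the counting program and its annotation are not given in the sources used here. All values were whole multiples of 1 step per library (100% within 0.001), which recovers the reads, though for old female 1 the step was close to 1. The column of young female 1 carries the number 2 and was placed by its label. Of 25604 rows, 24431 were genes, 1146 transposable elements and 27 carried dates and were left out; 2817 rows were at 0 throughout.

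Genes whose normalised count averaged 10 or more across all 18 libraries were fitted with limma 3.58.1 in R 4.3.3 (lmFit, eBayes with trend) on log2(normalised count + 1), a scale that understates changes of low genes. The model held 6 groups of sex, age and treatment (12 residual degrees of freedom), and p-values were adjusted by Benjamini-Hochberg over all genes tested. Transposable elements were adjusted apart. Errors of log2 changes are SE from this model. Recovered reads went to edgeR 4.0.16 (quasi-likelihood) and DESeq2 1.42.0 as alternatives, and the fit was checked on simulated data. Positions are from GENCODE M21 on GRCm38, the assembly of mm10.

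The genes named were drawn by a rule, and not every gene or subfamily that it gave is printed. It took the 10 with the smallest p in each direction (mean of at least 50 in the females, no predicted symbols, since none was called). It also took the 2 with the smallest p or all called members per list, the 5 per side for the sex difference and transposable elements, and a set of fixed genes. Further genes were chosen after their values were seen. Members and lists were chosen with earlier results of these data known. Counts of 0 in a library leave a gene's level below about 3 reads. Alternatives were other scalings, pseudocounts and filters, no trend, array weights, only the compared groups, a replicate block, another threshold, and leaving out single libraries or young females 1 and 3. Those that joined 2 choices, the share without young females 1 and 3, and the sex difference of transposable elements were added after seeing the data.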

Additional observations from a re-analysis of the deposited data

How the results depend on the processing

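Each group held 3 libraries, which differed in transposable-element share and in markers of other organs, and the depth of 64.6 to 81.9 M recovered reads limits mainly the low genes. The count of genes called by age in females was 0 and became 57 with DESeq2, 1491 with array weights (whose fit did not converge fully), 10 with no filter, 1 with a pseudocount of 10, 1 without young females 1 and 3 (Aldh1a2, at 0 in young female 8), and 1 when this was joined to median-of-ratios scaling; leaving out single libraries gave 0 to 17. The other settings gave 0. Fits without young females 1 and 3 have young female 8 as the only young female, so their counts rest on that library. For the difference between the sexes DESeq2 gave 152 genes and each limma setting and edgeR gave 0.

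The 419 transposable-element subfamilies became 793 with DESeq2, 767 with edgeR, 929 with array weights, 0 with only the groups compared (also with a total over gene rows) and with the replicate block, 3 without young females 1 and 3 under both scalings, and 2 to 830 without single libraries; the remaining settings gave 285 to 624. Their count for the difference between the sexes, 0 as reported, became 572 with DESeq2, 511 with edgeR, 893 with array weights, 347 at an adjusted p under 0.1, 1 without young females 1 and 3 (2 with median-of-ratios scaling), and 0 to 782 without single libraries. The share difference of -4.68 percentage points became 0.0984 without young females 1 and 3. The cause of these shifts was not tested.

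Replicate numbers 1 and 3 are shared by the groups. The deviations of same-numbered libraries from their group means had correlations of 0.110 and -0.0002 for numbers 1 and 3. Those of the other old and young pairs ran from -0.18 to 0.135. So few pairs cannot show whether the numbers pair the mice, and the main fit used no pairing. With a replicate block 0 genes and 0 transposable-element subfamilies were called.

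Of 1447 recomputed values of 66 named genes, 25 changed sign, all of them in 5 genes. The Myh1 log2 change became -0.63 with array weights, and -0.32 to 0.72 without single libraries. The Myh2 log2 change became -0.0507 with DESeq2, -0.0528 with edgeR, -1.04 with array weights, -0.0948 with median-of-ratios scaling, -0.0109 with quantile normalisation, -0.14 with the replicate block, and -0.44 to 0.60 without single libraries. The Esr1 log2 change ran from -0.25 to 0.0401 without single libraries, and the Xist log2 change became -0.0534 with median-of-ratios scaling without young females 1 and 3. The Fam214a log2 change became -0.13 with DESeq2, edgeR, quantile normalisation and median-of-ratios scaling, -0.14 with that scaling without young females 1 and 3, -0.0774 without them alone, -0.0281 with a total over gene rows (also with only the groups compared) and ran from -0.0619 to 0.11 without single libraries. Of 360 recomputed list medians 13 moved by more than the spread between libraries, among them those of the MHC, complement, ribosomal protein and brain marker lists without young females 1 and 3.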
